A study of Mus musculus with 6 samples.

Results

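The expression of genes that carry a pseudogene symbol was examined in cells sorted from mouse kidney after deletion of the telomere-protecting gene Trf1 (listed as Terf1) in cells that express Cre. Every gene of the deposited table whose symbol ends in "-ps", with or without a number, was listed, and Rps3a3 was added, which gave 43 members among 12125 listed genes. Rps3a2 was sought as well and is not among the listed genes. The set was chosen because Rps3a3 and H2af-ps2 were near 0 in all Trf1flox/flox libraries, so the genotype difference of the members is given as a description with no test. Tests were kept for their parent genes (the genes a copy derives from) and for the gene that holds Rps3a3.

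The 3 Trf1+/+ mice and the 3 Trf1flox/flox mice all carried the Col1a2-CreERT2 transgene, a tamoxifen-dependent Cre driven by the promoter of the collagen gene Col1a2, and a Cre reporter that switches on the Katushka fluorescent protein (KFP). Mice of both genotypes were 6 to 8 weeks old at the start and received tamoxifen 3 times a week for 8 weeks, so the controls carry the Cre and were treated with the same drug. Both sexes were used, and neither the sex of each mouse nor the strain is stated. Cells were sorted for CD29 and KFP, and 500 cells per mouse went into a library primed on poly(A) tails and amplified by PCR. The text of the study does not say whether the sequenced cells carried both markers.

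A processed pseudogene arises when the reverse transcriptase of a LINE-1 element copies a mature mRNA and inserts the copy elsewhere in the genome, without introns and without the promoter of the parent. An unprocessed pseudogene comes from a duplicated stretch of the genome and can keep introns, and a unitary pseudogene is a gene that lost its function with no working copy left. Genes with abundant mRNA, such as those for ribosomal proteins and ferritin, have many processed copies. Reads from a copy and from its parent can be told apart only where their bases differ.

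The members were not all processed pseudogenes. In GENCODE release M21, 19 were processed pseudogenes, 11 were unprocessed, 3 were unitary, 6 were protein-coding and 1 was a long intergenic RNA, while 3 had no match. Ftl1-ps1, Nutf2-ps1, Rpl10-ps3 and Rpl9-ps6, which are protein-coding in GENCODE, are pseudogenes in RefSeq and match their parent, so they were joined to the 19 as 23 processed copies. Of these, 20 lie in a single exon block, and 21 have a parent among the listed genes, of which 20 are described here. The remaining 20 are called the other members here, and they include the 3 without a match, whose class is not known.

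Normalized counts (reads of a gene over the size factor of its library) stood on 10263382 to 12248797 reads per library. The library labelled Trf1+/+ replicate 1 held 0.891 normalized counts of Terf1, which is 1 read, against 253 and 235 in the other Trf1+/+ libraries. That count went against its label. This library also had the fewest genes above 0 (8967 against 9733 to 11593) and the lowest median normalized count (13.4 against 118 to 148). Many genes were thus low in it, and its Terf1 count does not settle its genotype. The Trf1flox/flox libraries held 110, 7.65 and 12.4 for Terf1, so that replicate 1 kept more of it than the other 2 and lay below the other Trf1+/+ libraries. The labels name the cells fibroblasts, yet of 8 fibroblast markers only Col1a2 and Dcn (2 genes) were listed, and their sum ran from 1.66 to 94.6 in Trf1+/+ and from 2.58 to 98.4 in Trf1flox/flox libraries. Col1a2 itself was between 0 and 1.78, while 8 of 8 proximal tubule markers were listed and summed to between 14375 and 105690. Markers of the loop and distal tubule (4 of 4 listed) summed to between 52806 and 136229, those of the collecting duct to between 322 and 17657 with the highest sum in Trf1flox/flox replicate 1, and those of red cells to between 121 and 52110 with the highest sum in Trf1flox/flox replicate 3. Endothelial markers (2 of 4 listed) summed to at most 307, and none of 4 immune markers was listed. Outside these markers, the T cell receptor gene Trac held 172, 216 and 61.3 normalized counts in Trf1flox/flox libraries and 0 in each Trf1+/+ library. The part of these sums in the results on the members was not tested. These are bulk libraries, so fewer cells of a type and less RNA per cell cannot be told apart.

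Rps3a3 is shown first because its counts can be told from those of its parent at few positions. It lies on chromosome 13 at chr13:108670603-108671397 on the plus strand (GRCm38, GENCODE M21), inside an intron of Pde4d, a cAMP-degrading phosphodiesterase gene on the same strand. Its 795 bases aligned without gaps to the 795-base coding sequence of Rps3a1, a gene for a protein of the small ribosomal subunit, and 9 bases differed. The copy keeps a reading frame of 264 codons, as long as that of the parent, with 9 codons that differ and 2 that encode another amino acid. The 300 bases with the most differences are bases 361 to 660 of the Rps3a1 coding sequence, written from 5′ to 3′, with the 5 differing bases in capitals.
Rps3a3: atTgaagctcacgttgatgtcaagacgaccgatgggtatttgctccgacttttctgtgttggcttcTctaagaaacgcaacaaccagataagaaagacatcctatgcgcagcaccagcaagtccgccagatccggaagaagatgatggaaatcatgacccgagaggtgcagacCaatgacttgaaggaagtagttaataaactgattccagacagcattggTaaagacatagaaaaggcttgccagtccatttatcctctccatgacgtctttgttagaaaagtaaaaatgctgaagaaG
Rps3a1: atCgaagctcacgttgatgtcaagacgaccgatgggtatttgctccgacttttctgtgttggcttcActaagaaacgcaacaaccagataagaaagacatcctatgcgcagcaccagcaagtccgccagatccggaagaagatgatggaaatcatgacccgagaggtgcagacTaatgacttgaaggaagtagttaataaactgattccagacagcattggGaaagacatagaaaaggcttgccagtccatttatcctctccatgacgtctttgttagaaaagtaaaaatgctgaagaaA
H2af-ps2 is shown because no parent of it is listed. It is Hist1h2al in GENCODE M21 (ENSMUSG00000091383.2), at chr13:51202727-51203065 on the minus strand, a single block of 339 bases. Its closest coding transcript was that of Hist2h2aa1, a histone H2A gene, from base 16 of a coding sequence of 393 bases, and 2 bases differed. Both fall in the window from base 35 to base 334 of that coding sequence.
H2af-ps2: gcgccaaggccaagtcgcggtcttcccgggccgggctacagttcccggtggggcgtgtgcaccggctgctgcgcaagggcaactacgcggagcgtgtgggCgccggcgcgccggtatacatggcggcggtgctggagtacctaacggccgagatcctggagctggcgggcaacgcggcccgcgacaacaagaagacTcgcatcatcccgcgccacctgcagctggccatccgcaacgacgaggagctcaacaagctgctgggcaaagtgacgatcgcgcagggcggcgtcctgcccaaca
Hist2h2aa1: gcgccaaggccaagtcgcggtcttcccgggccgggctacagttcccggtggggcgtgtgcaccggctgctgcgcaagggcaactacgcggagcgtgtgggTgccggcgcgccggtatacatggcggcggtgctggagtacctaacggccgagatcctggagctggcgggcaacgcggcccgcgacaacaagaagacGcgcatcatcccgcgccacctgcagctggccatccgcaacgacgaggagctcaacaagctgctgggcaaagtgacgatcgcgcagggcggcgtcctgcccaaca
Rpl36-ps12 is shown as a copy of like identity whose counts stayed near a fixed share of its parent. It holds the whole 318-base coding sequence of Rpl36, a gene for a protein of the large ribosomal subunit, with 3 differing bases, 2 of them between bases 27 and 266.
Rpl36-ps12: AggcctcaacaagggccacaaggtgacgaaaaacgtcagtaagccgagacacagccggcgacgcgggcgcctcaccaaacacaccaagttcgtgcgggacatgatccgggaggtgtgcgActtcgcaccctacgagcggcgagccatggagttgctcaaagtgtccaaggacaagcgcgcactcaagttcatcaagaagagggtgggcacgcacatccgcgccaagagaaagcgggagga
Rpl36: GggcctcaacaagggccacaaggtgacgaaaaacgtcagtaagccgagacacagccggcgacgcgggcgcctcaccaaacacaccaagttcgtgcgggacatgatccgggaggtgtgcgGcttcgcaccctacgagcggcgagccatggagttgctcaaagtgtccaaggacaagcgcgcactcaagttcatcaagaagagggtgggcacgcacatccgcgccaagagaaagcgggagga

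In Trf1+/+ mice Rps3a3 had 664, 683 and 406 normalized counts. In Trf1flox/flox mice it had 1.72, 0 and 1.38. The Trf1flox/flox values stand for 2, 0 and 2 reads, and the genotypes did not overlap. Set against a floor of 3 reads in each Trf1flox/flox library, the level was at least 221-fold lower there. On the log2(normalized count + 1) scale the difference, Trf1flox/flox minus Trf1+/+, was -8.26 (SE 2.17, n = 3 each). Leaving out the library labelled Trf1+/+ replicate 1 gave -8.15, and leaving out Trf1flox/flox replicate 1 gave -8.53. Per kilobase of exon, Rps3a3 had the highest mean over the 6 libraries of the 40 members with an annotated length (368 normalized counts per kilobase).

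The parent did not share that pattern. Normalized counts of Rps3a1 were 1621, 887 and 475 for Trf1+/+ mice and 1181, 1236 and 1892 for Trf1flox/flox mice. These ranges overlap, and the log2 difference of 0.67 (SE 0.60) gave an adjusted p of 0.970 with limma, where the exact two-sided permutation test gave p = 0.3 and could not go below 0.1. Rps3a3 made up 29.1%, 43.5% and 46.1% of the reads of the pair in the Trf1+/+ libraries (95% Wilson intervals 27.3 to 30.9, 41.3 to 45.7 and 42.8 to 49.4). In the Trf1flox/flox libraries it made up 0.145%, 0% and 0.0728%, with upper Wilson bounds of 0.528% and 0.265% for the first and the third. For the second, with 0 among 1131 reads, the upper Wilson bound was 0.339%, and the limit of 3 reads was 0.265%. These intervals cover counting error only, since PCR reads without molecular identifiers are not independent molecules. The mean share was 39.5% ± 9.16 (SD, n = 3) against 0.0727% ± 0.0726. Counted together, the pair had 1579 ± 702 normalized counts in Trf1+/+ mice against 1438 ± 396 in Trf1flox/flox libraries, which is a smaller gap than the spread between mice.

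Pde4d, the gene around Rps3a3, was lower in the same libraries. Its normalized counts were 773, 302 and 1066 for Trf1+/+ mice against 143, 63.4 and 108 for Trf1flox/flox mice, with no overlap between genotypes. The log2 difference was -2.65 (SE 0.98), with an unadjusted p of 0.0197 and an adjusted p of 0.970 in limma, and it did not pass the test. Leaving out the library labelled Trf1+/+ replicate 1 gave -2.50, and leaving out Trf1flox/flox replicate 1 gave -2.91. Both genes lie on the same strand, so a count of Rps3a3, stranded or not, would also take in reads from unspliced Pde4d RNA. The part of such reads was not tested. Beyond Pde4d, the nearest listed genes were Elovl7 on one side, a fatty acid elongase gene 385 kb away, and Plk2 on the other, a kinase gene 1724 kb away. Both overlapped between genotypes, Elovl7 at 443 to 1279 against 823 to 1048 and Plk2 at 0.985 to 1193 against 0 to 136. The next listed gene past Plk2 is Gpbp1, a gene for a DNA-binding protein 2754 kb from Rps3a3, and it held 1563, 894 and 907 normalized counts in Trf1+/+ mice against 442, 622 and 283 in Trf1flox/flox mice. These do not overlap (log2 difference -1.34, SE 0.64), and the difference did not pass limma (adjusted p = 0.970).

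H2af-ps2 reached 117, 63.0 and 61.1 normalized counts in Trf1+/+ mice, and no read of it was counted in any Trf1flox/flox library. Against a floor of 3 reads it was at least 30.4-fold lower, and the fitted log2 difference was -6.28 (SE 1.67), or -5.98 without the library labelled Trf1+/+ replicate 1. Spin1, a chromatin reader gene that ends 50.2 kb before it, held 534, 34.8 and 387 normalized counts in Trf1+/+ mice against 340, 329 and 289 in Trf1flox/flox libraries, which overlap. Cks2, a cell cycle gene 442 kb after it, held 22.3, 249 and 317 in Trf1+/+ and 332, 377 and 482 in Trf1flox/flox libraries, so that it lay in the opposite order from H2af-ps2. Its log2 difference of 1.68 (SE 1.20) did not pass the limma test (adjusted p = 0.970).

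**Figure D1:**
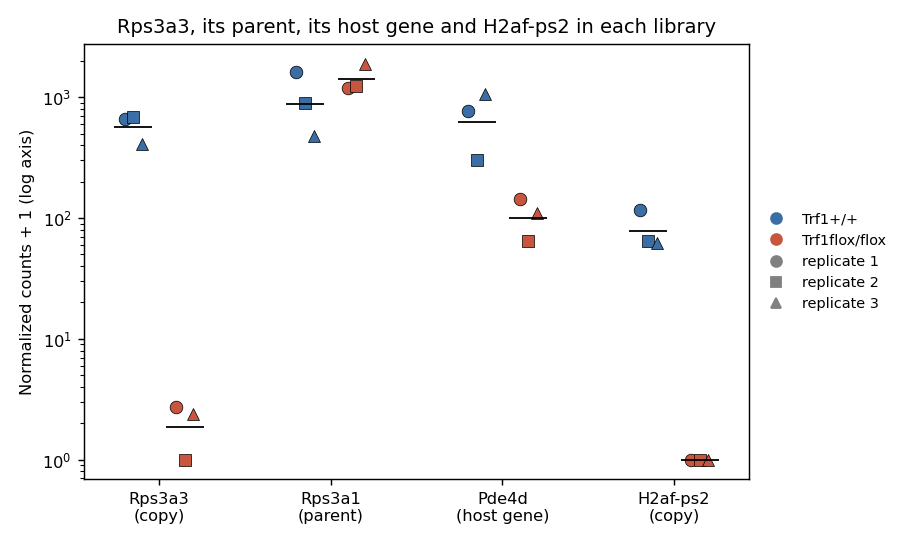
Normalized counts plus 1 (log axis) of Rps3a3, its parent Rps3a1, its host gene Pde4d and H2af-ps2 in the 6 libraries. Each symbol is a library, colour gives the genotype label, and the bar is the mean on the log scale. Rps3a3 and H2af-ps2 lie at 2 reads or fewer in all 3 Trf1flox/flox libraries, Pde4d is lower without reaching 0, and Rps3a1 overlaps between genotypes.

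Few genes had a present or absent pattern of this kind. At least 10 normalized counts in each Trf1+/+ library and at most 3 reads in each Trf1flox/flox library were found for 8 of 9966 tested genes (0.0803%), which include Rps3a3 and H2af-ps2. The other 6 were Cyria, Gm14401, Gm21811, Gm32492, Gm6566 and the zinc finger gene Zfp729b, the last on chromosome 13 as are Rps3a3 and H2af-ps2. The opposite pattern was found for 74 genes (0.743%), none of them a member. In the library labelled Trf1+/+ replicate 1, 56.2% of listed genes were above 3 reads, against 70.2% to 91.6% in the other libraries. Low detection there makes the first pattern harder to meet and the opposite one easier, so the 8 and the 74 are not compared. Over the 6 libraries, the tested gene most like Rps3a3 was H2af-ps2 (Pearson r = 0.99 on the log2 scale), followed by Gm14401, Slc4a3, Gm32492 and Kdm2b (r from 0.97 to 0.98). For H2af-ps2 the order was Gm32492, Rps3a3, Zfp729b, Gm6566 and Gm14401 (r from 0.97 to 0.99). As the 6 libraries split by genotype for both members, these r values describe the shared order of the libraries and nothing further. Rps3a1 stood at r = -0.46 with Rps3a3, and Pde4d at 0.90.

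The processed copies of ferritin light chain and of other highly expressed genes kept a small share of the counts of the pair. Ftl1-ps1, a copy of the iron-storage gene Ftl1, held 318, 244 and 193 normalized counts in Trf1+/+ mice against 162, 226 and 362 in Trf1flox/flox mice. Its share ran from 0.700% to 1.05% over all 6 libraries, while Ftl1 itself ran from 18826 to 40862 normalized counts. A second copy, Ftl1-ps2, took 0.0190% to 0.211%, with the highest value in Trf1flox/flox replicate 2. Exons of Ftl1-ps1 overlap in part those of Gm47428 on the other strand, and how reads in the shared stretch were counted is not given.

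Oaz1-ps, a copy of the gene for ornithine decarboxylase antizyme, had the steadiest share of all copies. It held 178, 126 and 93.6 normalized counts in Trf1+/+ mice against 105, 102 and 170 in Trf1flox/flox libraries, or 2.04% ± 0.130 and 2.22% ± 0.159 of the pair (SD, n = 3 each). Over the 6 libraries its correlation with Oaz1 was r = 0.96 on the log2 scale, where only 7.86% of its 50-base windows are unlike any other annotated transcript. Ubb-ps, a copy of a polyubiquitin gene, made up 0.366% to 0.505% of its pair in Trf1+/+ and 0.542% to 0.584% in Trf1flox/flox libraries. These ranges do not overlap, and the nearest values differ by less than the range within Trf1+/+ mice. Ldhb-ps, a copy of a lactate dehydrogenase gene, held 5.46 to 20.5 normalized counts beside 28294 to 85501 for Ldhb, and its mean share was 0.0236%, the lowest of the 20 copies described.

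Copies of ribosomal protein genes differed widely in their share, from a mean of 0.423% for Rpl10-ps3 to 11.4% for Rpl36-ps12 outside Rps3a3. Rpl36-ps12, which sits in the gene Sumf1, held 60.6, 134 and 70.9 normalized counts in Trf1+/+ mice against 38.7, 113 and 130 in Trf1flox/flox libraries. Its share was 12.3% ± 1.20 against 10.5% ± 2.28, a gap within the spread between mice, and it followed Rpl36 at r = 0.91. In Trf1flox/flox replicate 2 it held 113 normalized counts while its host Sumf1 held 1.09, so that its counts there did not follow the host.

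Rps2-ps10 held 9.80, 12.4 and 8.87 normalized counts in Trf1+/+ mice against 12.9, 18.6 and 13.1 in Trf1flox/flox libraries. The genotypes do not overlap, yet the log2 difference of 0.47 is smaller than its SE of 1.91, and none of its 50-base windows is unlike other transcripts. Rpl10-ps3 held 1.78 to 4.93 in Trf1+/+ and 4.30 to 18.6 in Trf1flox/flox libraries, all low counts that overlap. Rpl9-ps6 held 23.2, 14.1 and 11.8 against 6.01, 15.3 and 8.27, with a mean share of 1.02%. Rps26-ps1 was found in 4 of the 6 libraries, at 0, 64.6 and 21.7 in Trf1+/+ and 0.859, 0 and 39.3 in Trf1flox/flox libraries, while Rps26 never fell below 555. Its counts thus did not follow those of the parent, and it lies in Wwp2 on the opposite strand.

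**Figure D2:**
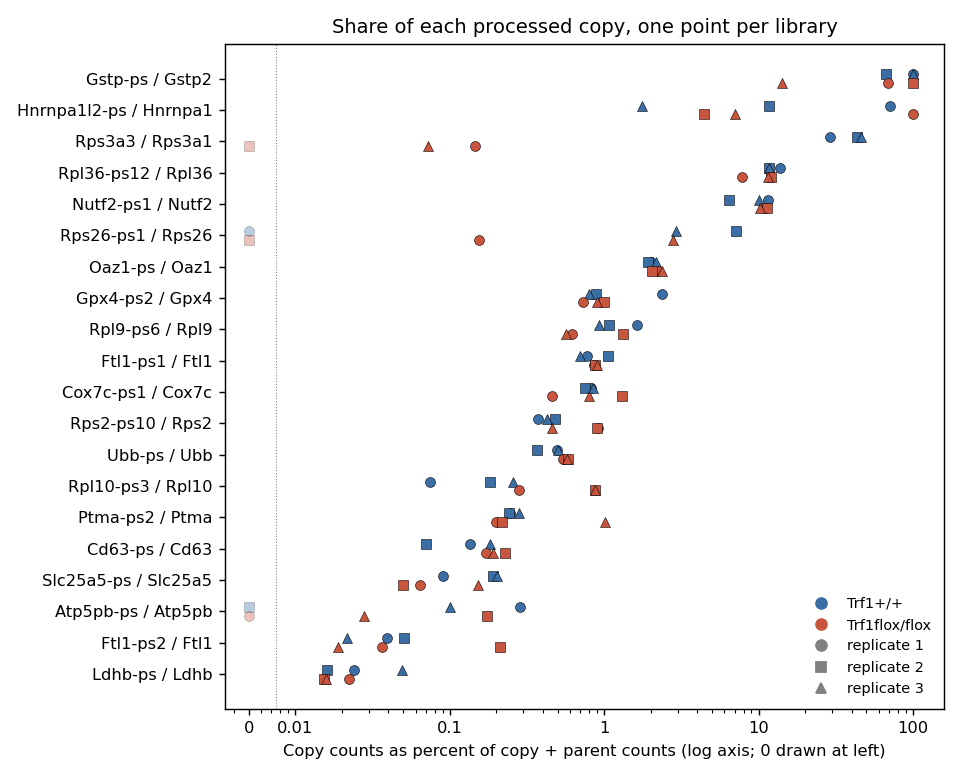
Counts of each of the 20 processed copies described as a percent of the counts of copy plus parent (log axis, 0 drawn at the left), with a symbol per library coloured by genotype label. Oaz1-ps forms the narrowest column of points, near 2.13%, and the other copies spread more widely. Rps3a3 splits into 29.1% to 46.1% in Trf1+/+ and at most 0.145% in Trf1flox/flox libraries.

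Over the 20 copies described, the mean share had a median of 0.844%, and 15 copies had a mean share under 5%. The correlation of copy and parent over the 6 libraries was above 0 for 16 of 20, with a median r of 0.55, or 0.40 without the library labelled Trf1+/+ replicate 1. A copy and its parent share library, size factor and, where reads are alike, the reads themselves. The ranges of the share overlapped between genotypes for 17 copies, were lower in Trf1flox/flox for Rps3a3 alone and were higher there for Rpl10-ps3 and Ubb-ps. By normalized counts, 8.68% of all tested genes did not overlap between genotypes. As Rps3a3 was chosen on this contrast, nothing is read from these numbers of copies. The log2 ratio of copy to parent had an SD over libraries of 4.93 for Rps3a3, against a median of 0.59 for the other 19 copies. The next highest were 2.92 for Hnrnpa1l2-ps and 2.72 for Rps26-ps1. The SD of Rps3a3 holds the low Trf1flox/flox counts on which it was chosen, so it is a description only. Copies of equal identity had unequal shares, as Rpl10-ps3 and Nutf2-ps1 both match their parent at 100% of aligned bases and had mean shares of 0.423% and 10.1%.

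Among the remaining copies, Slc25a5-ps and Vamp7-ps had the largest differences between genotypes after Rps3a3 and H2af-ps2. Slc25a5-ps, a copy of a mitochondrial ADP/ATP carrier gene, held 71.3, 87.8 and 54.2 normalized counts in Trf1+/+ mice against 22.3, 14.2 and 44.1 in Trf1flox/flox libraries. These do not overlap (log2 difference -1.49, SE 2.10), but its share of the pair does, at 0.0907% to 0.201% against 0.0494% to 0.151%, and the parent ranged from 26941 to 78473. Its exons overlap those of Fhit on the other strand, which held 0 to 218 against 0 to 130. Vamp7-ps, named for a vesicle fusion protein gene that is not among the listed genes, held 0, 0.829 and 17.7 normalized counts in Trf1+/+ mice against 98.8, 33.9 and 53.1 in Trf1flox/flox libraries. It was the only member whose log2 difference was above 0 and larger than its SE (4.14, SE 2.08).

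Cd63-ps, a copy of a tetraspanin gene, was higher in each Trf1flox/flox library at 18.9, 19.7 and 26.2 normalized counts against 16.9, 9.11 and 17.7. The highest Trf1+/+ value, 17.7, and the lowest Trf1flox/flox value, 18.9, lie close together, and the log2 difference was 0.57 (SE 2.08). Cd63-ps lies inside Hsd17b4 on the same strand, a gene at 873 to 2411 normalized counts. The part of reads from unspliced Hsd17b4 RNA was not tested. Gpx4-ps2, a copy of the gene for a lipid peroxide reductase, reached 2.38% of its pair in the library labelled Trf1+/+ replicate 1 and 0.730% to 0.995% in the other 5 libraries. Nutf2-ps1, a copy of a nuclear transport factor gene, held 9.80, 13.3 and 28.6 against 33.5, 24.0 and 37.2, and Nutf2 moved alike (r = 0.90), so its share was 9.34% ± 2.63 against 10.9% ± 0.634. Hnrnpa1l2-ps and Gstp-ps had shares between 1.76% and 100% and between 14.3% and 100%. In both cases the parent, an RNA-binding protein gene and a glutathione transferase gene, was at or near 0 in some libraries, with Hnrnpa1 at 3.56 and 0 and Gstp2 at 0 in 3 libraries. Gstp-ps lies inside Traf5 on the same strand, a gene at 4.45 to 316 normalized counts, and the part of its unspliced RNA was not tested either.

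Several of the 20 other members varied widely between mice of the same genotype. Pisd-ps1 and Pisd-ps2, duplicates of the gene for the mitochondrial enzyme that makes phosphatidylethanolamine, followed the parent Pisd. Pisd held 17.8, 53.0 and 335 normalized counts in Trf1+/+ mice against 479, 6.56 and 134 in Trf1flox/flox libraries. Pisd-ps1 held 0, 1.66 and 209 against 320, 0 and 62.7, and Pisd-ps2 held 4.45, 19.1 and 162 against 58.4, 3.28 and 13.1. All 3 genes were therefore highest in Trf1+/+ replicate 3 and Trf1flox/flox replicate 1, with r of 0.96 and 0.90 to Pisd, and overlapped between genotypes.

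Olfr1372-ps1, an olfactory receptor pseudogene, and Mrgprc2-ps, a pseudogene of the Mas-related receptors, were also highest in that pair of libraries. Olfr1372-ps1 held 72.9 and 96.2 normalized counts there and 2.07 to 4.37 in the other 4 libraries, and Mrgprc2-ps held 11.8 and 30.9 there and 0 to 1.09 elsewhere. Neither gene kept to a genotype. Slc2a4rg-ps, a unitary pseudogene, had the widest fold range of the members above 0 in every library, from 1.78 to 228 normalized counts. Tmem181b-ps held 75.4 and 38.4 in Trf1+/+ replicates 2 and 3 but 0 in the library labelled replicate 1, and at most 1.72 in Trf1flox/flox libraries. Without that library its genotypes would not overlap, and it did not reach the count minimum in 3 libraries. Zfp133-ps was at 94.4 in Trf1flox/flox replicate 3 and at no more than 1 read elsewhere. Its opposite-strand partner Dzank1 held 131 in Trf1flox/flox replicate 1 and 4.82 in replicate 3, so the 2 were high in different libraries.

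Those of the 20 other members with the highest means also overlapped between genotypes. Gpr137b-ps, a duplicate of a lysosomal membrane protein gene, held 228, 29.8 and 499 normalized counts in Trf1+/+ mice against 38.7, 519 and 360 in Trf1flox/flox mice, a 17.4-fold range that spans both genotypes. Tmem250-ps is a long noncoding RNA gene in GENCODE and protein-coding in RefSeq. It held 754, 394 and 319 normalized counts in Trf1+/+ mice against 549, 1097 and 422 in Trf1flox/flox libraries (log2 difference 0.47, SE 0.72). Mfsd4b3-ps, of a transporter family, held 101, 209 and 236 against 357, 207 and 143, and its exons overlap those of Mfsd4b5 on the same strand. Ube2d-ps, related to ubiquitin-conjugating enzyme genes, held 1124, 105 and 372 against 141, 290 and 209. Its log2 difference of -0.79 (SE 1.06) became 0.04 without the library labelled Trf1+/+ replicate 1, so its sign rested on that library. Ube2d1, the closest listed relative at 76.8% identity, held 0, 4.97 and 135 against 358, 226 and 145 and lay in the opposite order without overlap (log2 difference 4.62, SE 2.38, limma adjusted p = 0.970).

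**Figure D3:**
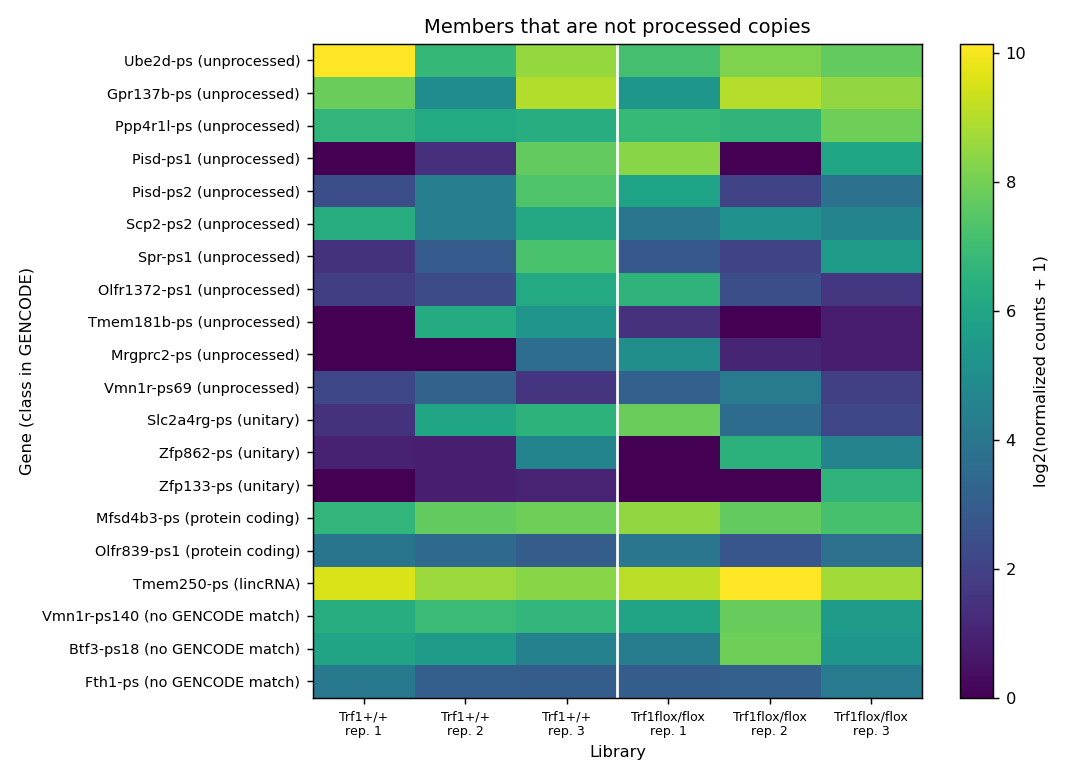
Level of each of the 20 other members (rows, with the GENCODE class) in the 6 libraries (columns, Trf1+/+ left of the white line), as log2(normalized counts + 1). Pisd-ps1, Pisd-ps2, Olfr1372-ps1 and Mrgprc2-ps are high in Trf1+/+ replicate 3 and Trf1flox/flox replicate 1, and no row separates the genotypes.

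The filter, a minimum of 10 normalized counts in 3 or more libraries, was passed by 31 of the 43 members and not by 12. Of the 31, 3 did not overlap and were lower in Trf1flox/flox libraries (Rps3a3, H2af-ps2 and Slc25a5-ps) and 3 did not overlap and were higher (Cd63-ps, Rps2-ps10 and Vamp7-ps). Over all tested genes, 3.33% were lower and 5.35% were higher without overlap, and since the members were picked on this contrast nothing is read from their count. By log2 difference, 15 of the 31 were above 0 and 16 below it, with a median of -0.01, where the median of all 9966 tested genes was 0.20. That order of the 2 medians depended on the processing. Members and all genes had medians of 0.044 and -0.028 without the library labelled Trf1+/+ replicate 1. They were 0.096 and -0.045 with edgeR, and 0.099 and -0.052 with DESeq2. For 28 of the 31 the difference was smaller than its SE, the exceptions being Rps3a3, H2af-ps2 and Vamp7-ps. After these and Slc25a5-ps, the lowest were Rps26-ps1 (-1.44) and Scp2-ps2 (-1.05), and the highest were Pisd-ps1 (1.73), Zfp862-ps (1.56), Nutf2-ps1 (0.95) and Ppp4r1l-ps (0.72). The difference kept its sign under all 12 alternatives of processing for 14 of the 31 and changed sign at least once for 17.

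**Figure D4:**
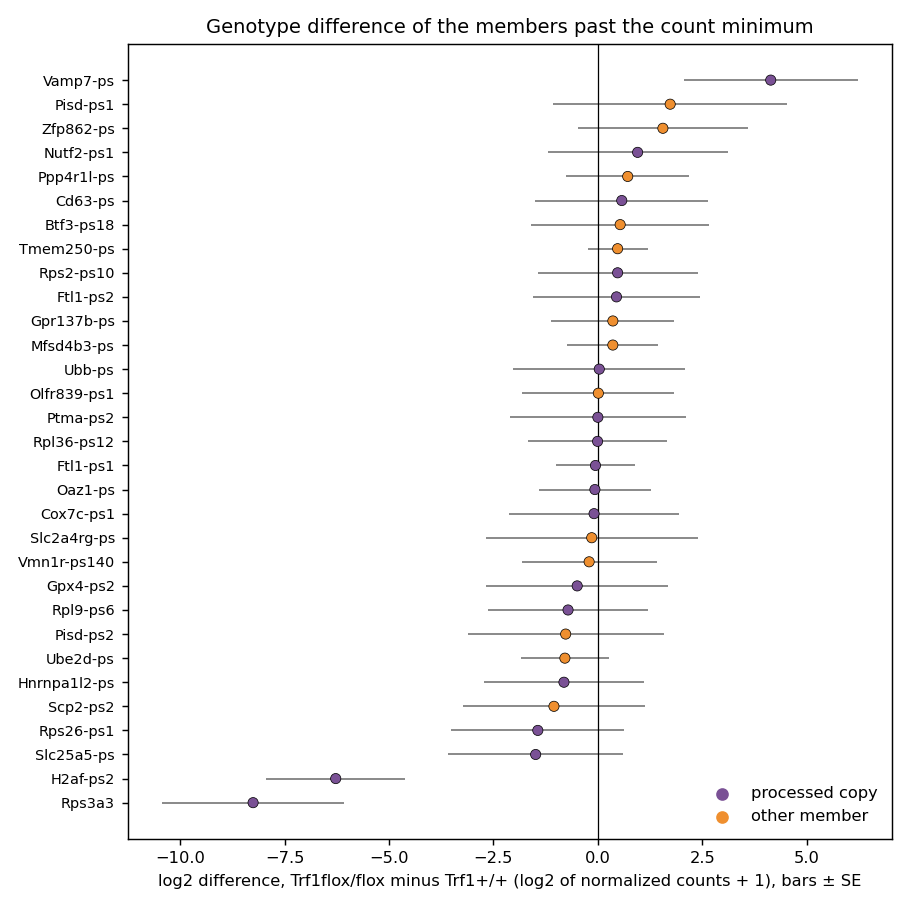
Log2 difference (Trf1flox/flox minus Trf1+/+, of normalized counts + 1) of the 31 members above the count minimum, with bars of ± 1 SE, coloured as processed copies or other members. Rps3a3 at -8.26 and H2af-ps2 at -6.28 stand apart from the other 29, whose bars all reach or cross 0 except that of Vamp7-ps at 4.14.

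None of the 30 parents passed limma at an adjusted p of 0.05, and none had an unadjusted p under 0.05. Over all tested genes limma called 0 of 9966 (0%), with 312 (3.13%) at an unadjusted p under 0.05. On the recovered reads, edgeR called 0 genes (196 unadjusted) and DESeq2 called 58 (0.582%, 410 unadjusted), none of them a parent. Of the 30 parents, 20 had a log2 difference below 0, but with upper quartile scaling 10 did, as that scaling moved the median of all genes by 0.25. Relative to the median of all genes, 22 parents were lower, against 21 with upper quartile scaling, 15 with edgeR, 17 with DESeq2, 17 without the library labelled Trf1+/+ replicate 1 and 17 without Trf1flox/flox replicate 1. Only Ube2d1 did not overlap between genotypes, which is 3.33% of the 30 parents, against 8.68% of all tested genes.

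Cytosolic ribosomal protein genes, the family from which 7 of the processed copies derive, were examined as a list. Of 84 tested, 56 had a log2 difference below 0 and 28 above, with a median of -0.11, while with upper quartile scaling 23 were below 0 and the median was 0.17. Relative to the median of all genes, 73 of the 84 were lower, against 69 with upper quartile scaling, 44 with edgeR, 49 with DESeq2, 39 without the library labelled Trf1+/+ replicate 1 and 47 without Trf1flox/flox replicate 1. None passed limma and none had an unadjusted p under 0.05. The lowest was Rps4l (-3.97), itself a transcribed processed pseudogene in GENCODE, at 329, 381 and 70.9 normalized counts in Trf1+/+ mice against 93.7, 0 and 24.1 in Trf1flox/flox libraries. Among 77 tested genes with a GENCODE processed pseudogene class and no pseudogene symbol, 46 were below 0 and 31 above. Of the 77, 3 (3.90%) did not overlap and were lower in Trf1flox/flox, near the 3.33% of all tested genes. None had the present or absent pattern of Rps3a3, which only 0.0803% of all tested genes had, so nothing is read from these counts.

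Members were counted in most libraries. Of the 43, 32 were above 0 in all 6 libraries, against 58.1% of all listed genes, and 24 were above 3 reads in all 6. The number above 0 ran from 36 members, in the library labelled Trf1+/+ replicate 1, to 42. The summed counts of all members were 3614 ± 716 in Trf1+/+ and 3110 ± 510 in Trf1flox/flox libraries (SD, n = 3 each), and without Rps3a3 they were 3029 ± 740 and 3109 ± 511. The 23 processed copies summed to 1538 ± 350 and 890 ± 234, or 954 ± 197 and 889 ± 234 without Rps3a3. The parents together held 184534 to 370709 normalized counts per library and did not differ between genotypes beyond the spread (log2 difference -0.32, exact two-sided permutation test, p = 0.7, n = 3 each).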

How the data were processed

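RNA sequencing libraries of sorted kidney cells from 3 Trf1+/+ and 3 Trf1flox/flox mice were compared. The authors aligned reads with TopHat2 2.0.10 (Bowtie 1.0.0, SAMtools 0.1.19), allowing multiple hits, counted them on genes with HTSeq 0.6.1 and deposited DESeq2-normalized counts, a signal of reads divided by a size factor. The study describes the libraries as non-stranded, although its aligner was set to a second-strand library type. How the counting treated strand and reads with several hits is not given in the sources used here. The methods name GRCm38 and the labels name GRCm39, and some listed symbols are newer than GENCODE M21, so the build is not settled. Coordinates and sequences here are those of GENCODE M21, matched by symbol (11911 of 12125 genes) or by an older symbol. All values (100%) were whole multiples of the value of 1 read within 0.01, so reads were recovered. They totalled 10263382 to 12248797 per library, which sets the floor of 3 reads.

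The 9966 genes that reached 10 normalized counts in 3 or more libraries were fitted with limma 3.58.1 (trend, R 4.3.3) on log2(normalized count + 1), with Benjamini-Hochberg adjustment over all of them. Alternatives were pseudocounts of 0.1 and 10, no filter, upper quartile scaling, leaving out each library, and edgeR 4.0.16 and DESeq2 1.42.0 on recovered reads. Parents were taken from the symbol or from the best BLAST 2.17.0 match (at least 70% identity over at least 70% of the copy). Exact permutation tests were two-sided. Replicate numbers follow accession order and pair no mice, and p-values measure the spread between these mice. The members and lists were chosen with earlier results of these data known. The rule was to name members that passed the count minimum or were among the 30 with the highest mean. It added the 5 largest and 5 smallest differences, the genes most like Rps3a3 and H2af-ps2, and hosts or nearest listed genes. Cox7c-ps1, Ptma-ps2, Btf3-ps18, Vmn1r-ps140, Olfr839-ps1 and Spr-ps1 met that rule but are not described one by one, and not all hosts are named. Ldhb-ps, Rpl10-ps3, Mrgprc2-ps, Zfp133-ps, Rps4l and Trac fall outside that rule and were named after their values were seen. For 1 member the values are not reported here.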

Additional observations from a re-analysis of the deposited data

How the results depend on the processing

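Of the members, 0 had an adjusted p under 0.05 in limma and edgeR and under every other alternative except DESeq2, which called 1, Rps3a3, and since the members were chosen on this contrast these counts are no test of them. Rps3a3 and H2af-ps2 kept their direction under all 12 alternatives, with log2 differences of -9.78 to -5.72 and -9.58 to -3.12, where the pseudocount sets the size. Rps3a1 ranged from 0.23 to 1.11 and Pde4d from -3.18 to -2.27. The number of parents below 0 was 20 and became 10 with upper quartile scaling and 13 to 22 when single libraries were left out, the 13 without Trf1flox/flox replicate 1. The number of ribosomal protein genes below 0 was 56 and became 23 with upper quartile scaling and 25 to 69 when single libraries were left out, the 25 without Trf1flox/flox replicate 1. The summed counts of the members differed by -0.21 on the log2 scale and by 0.056 without Rps3a3, a choice made after seeing the data. The median correlation of copy and parent without the library labelled Trf1+/+ replicate 1 was also added after seeing the data. The cause of these shifts was not tested, other than by the construction of the scaling. No paired analysis was possible because the labels give no replicate numbers that pair mice. Reads of copies that match a parent over most windows, as for Rps2-ps10, Rpl10-ps3 and Nutf2-ps1, may be assigned to either gene, and counts of a few reads limit Rpl10-ps3 and Zfp133-ps.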
